A study of Rattus norvegicus with 12 samples.

Results

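The genes described here build the contractile lattice of heart muscle apart from its myosins: the thin filament, titin and the M-band, the Z-disc with its linked scaffold, and the ligases, chaperones and a methyltransferase that assemble or renew them, with muscle creatine kinase and myoglobin. They were taken by gene symbol from a list of 41, and 34 of them had a probe set that the platform annotation pairs with exactly 1 symbol, of 14324 genes named in this way. Each of the 34 was read by 1 probe set. The other 7, namely Tcap, Myom2, Nebl, Xirp1, Synpo2l, Flnc and Cmya5, were not analysed here. By role, 9 of the measured genes belong to the thin filament, 3 are titin, a protein of the M-band and a thick filament protein, 14 belong to the Z-disc and its scaffold, 6 serve turnover, folding and assembly, and 2 are Ckm and Mb.

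In a sarcomere, actin filaments are anchored at the Z-disc by alpha-actinin and are regulated by troponin and tropomyosin, while titin runs from the Z-disc to the M-band, where myomesin ties the thick filaments together. The Z-disc is also a platform for LIM domain proteins and ankyrin repeat proteins that respond to load. Damaged or surplus sarcomere proteins are tagged for the proteasome by muscle ubiquitin ligases such as Trim63 and Fbxo32.

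Heart cells of Sprague-Dawley rats were taken on day 2 after birth, all from the same litter, cultured for 3 days and then exposed for 3 days to the plasticiser DEHP, di(2-ethylhexyl) phthalate. The 4 groups were vehicle (0.1% DMSO) and DEHP at 1, 10 and 50 µg/ml, each DEHP group also in 0.1% DMSO, with 3 Affymetrix arrays in each group and 12 in all. The submitters call the arrays of a group biological replicates, but with a single litter the p-values reflect how much these cultures varied, not how much litters or animals vary. The series title names dose dependence as the question, so each dose was set against the vehicle and against the other doses.

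Values are log2 ratios of an array to the 12-array median of that probe set, and differences are between group means of these ratios, with their standard error and n = 3 arrays per group throughout. A difference of 1 is a doubling. No source used here states which way the ratio runs; array divided by median was assumed, and the other way round each rise below would be a fall of the same size. They carry no level: whether a gene lay above background, whether actin or troponin were abundant as a heart muscle culture should have them, and which of 2 genes was the more abundant could not be read. Cultures of this kind hold several cell types, and fewer cells of a type and less RNA per cell cannot be told apart in them. Tests are limma's moderated tests over all 14324 genes with Benjamini-Hochberg adjustment, and rose, fell and changed are used of genes past an adjusted p of 0.05.

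Promoters from the RefSeq table (GRCr8) are printed for Ckm and Acta1, which had the largest rises at 50 µg/ml, for Pdlim5, the only member that fell there and has an entry, and for Ttn and Xirp2 as carriers of a MEF2 site with different dose patterns. These last were chosen after the values were seen. Fbxo32 and Pdlim3, which had the largest falls, have no entry. Each line gives the 250 bases before the annotated gene start, 5′ to 3′ on the gene's own strand, with motif matches in capitals.
Acta1: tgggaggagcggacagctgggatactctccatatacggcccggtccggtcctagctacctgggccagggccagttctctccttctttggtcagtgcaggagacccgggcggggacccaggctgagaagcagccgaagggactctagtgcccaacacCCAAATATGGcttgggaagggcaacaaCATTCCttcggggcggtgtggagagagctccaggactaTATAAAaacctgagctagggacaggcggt
Ckm: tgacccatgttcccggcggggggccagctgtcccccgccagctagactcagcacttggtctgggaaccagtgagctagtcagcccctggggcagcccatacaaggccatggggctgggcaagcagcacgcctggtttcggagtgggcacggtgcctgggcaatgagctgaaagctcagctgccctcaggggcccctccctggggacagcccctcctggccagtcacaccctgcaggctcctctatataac
Ttn: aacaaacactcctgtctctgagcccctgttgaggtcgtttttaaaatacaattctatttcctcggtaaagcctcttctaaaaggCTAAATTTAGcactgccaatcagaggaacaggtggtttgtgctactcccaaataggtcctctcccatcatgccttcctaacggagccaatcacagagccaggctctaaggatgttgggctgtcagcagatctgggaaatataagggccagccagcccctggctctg
Xirp2: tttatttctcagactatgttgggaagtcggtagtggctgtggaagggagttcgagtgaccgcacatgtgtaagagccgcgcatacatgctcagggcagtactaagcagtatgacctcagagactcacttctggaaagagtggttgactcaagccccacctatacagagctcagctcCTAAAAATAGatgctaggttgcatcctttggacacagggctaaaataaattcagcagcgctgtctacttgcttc
Pdlim5: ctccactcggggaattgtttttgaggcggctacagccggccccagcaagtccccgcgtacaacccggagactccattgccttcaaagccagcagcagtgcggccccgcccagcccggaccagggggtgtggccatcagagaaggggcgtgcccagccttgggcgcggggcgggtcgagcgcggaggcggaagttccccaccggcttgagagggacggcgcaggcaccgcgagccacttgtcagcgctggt
In the Acta1 stretch (chr19:68784195-68784444, minus strand) the capitals mark, in order, a CArG box (the SRF site) 94 to 85 bases before the start, an MCAT element 67 to 62 bases before it and TATAAA 29 to 24 bases before it. The Ckm stretch (chr1:88189211-88189460, plus strand) and the Pdlim5 stretch (chr2:233793477-233793726, minus strand) hold none of the motifs searched. In the Ttn stretch (chr3:82332111-82332360, minus strand) the capitals are a MEF2 site 166 to 157 bases before the start, and in the Xirp2 stretch (chr3:72533936-72534185, plus strand) a MEF2 site 74 to 65 bases before it.

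Of the 34 measured members 27 had a promoter entry, and 6 motifs were searched in the same 250 bases on both strands, beside 27457 promoters of all genes. A MEF2 site was found in 7 member promoters (25.9%, against 3.07% of all promoters): those of Ttn, Mybpc3, Myoz2, Xirp2, Smpx, Fhl2 and Hspb7. A CArG box was found in 3 (11.1%, against 1.5%), those of Acta1, Ldb3 and Fhl2. The MCAT element CATTCC was found in 7 (25.9%, against 11.8%), TATAAA in 7 (25.9%, against 13.1%), the GATA motif AGATAA in 4 (14.8%, against 10.0%) and the PPAR element (the repeat AGGTCA in tandem, 1 base apart) in 0 (against 0.0546%). In the Fhl2 promoter the TATAAA match lies inside the MEF2 site, so that stretch is counted under both. The MEF2 site stood in 2 of the 14 promoters of members that rose at 50 µg/ml and in 5 of the 12 of members not past the threshold there. Median GC content was 57.2% in member promoters and 52% in all promoters.

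At 50 µg/ml thin filament genes, titin and myomesin 1 rose or did not pass, while the Z-disc and the turnover genes held both rises and falls. Of the 34 members 18 changed against the vehicle: 15 rose, where 8.75% of all genes tested were higher, and 3 fell, where 8.84% of all genes were lower. The median difference was 0.17 over the members and 0.018 over all genes. Rises reached a 1.54-fold increase for Ckm, muscle creatine kinase, followed by Acta1, Ldb3, Ttn and Smyd1, and falls reached a 0.662-fold level for Fbxo32. The 3 arrays of 50 µg/ml lay entirely above or below the 3 vehicle arrays in 21 members, in a comparison where 36% of all genes showed such a gap. The call count depended on vehicle replicate 3, without which 10 of the 34 changed, with 7 higher and 3 lower. At 10 µg/ml 0 of the 34 passed, where 0% of all genes did, and at 1 µg/ml 5 of the 34 rose and 0 fell, where 4.24% of all genes changed, 2.51% higher and 1.74% lower.

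**Figure D1:**
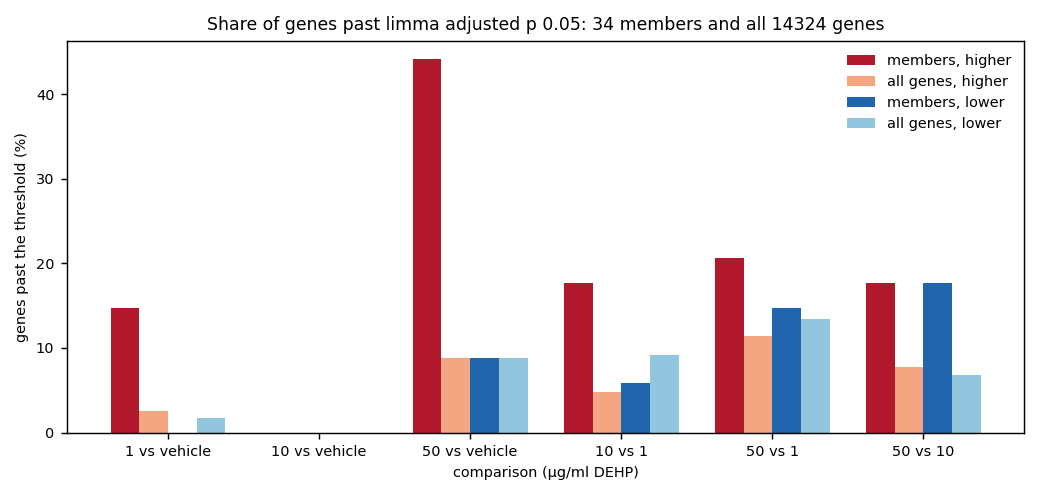
Bars give the percentage of genes past an adjusted p of 0.05 in each comparison, for the 34 members (dark) and all 14324 genes tested (light), higher in red and lower in blue; the first named dose of each comparison is set against the second. At 50 µg/ml against the vehicle 15 of 34 members rose, beside 8.75% of all genes, while 0 members passed at 10 µg/ml.

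**Figure D2:**
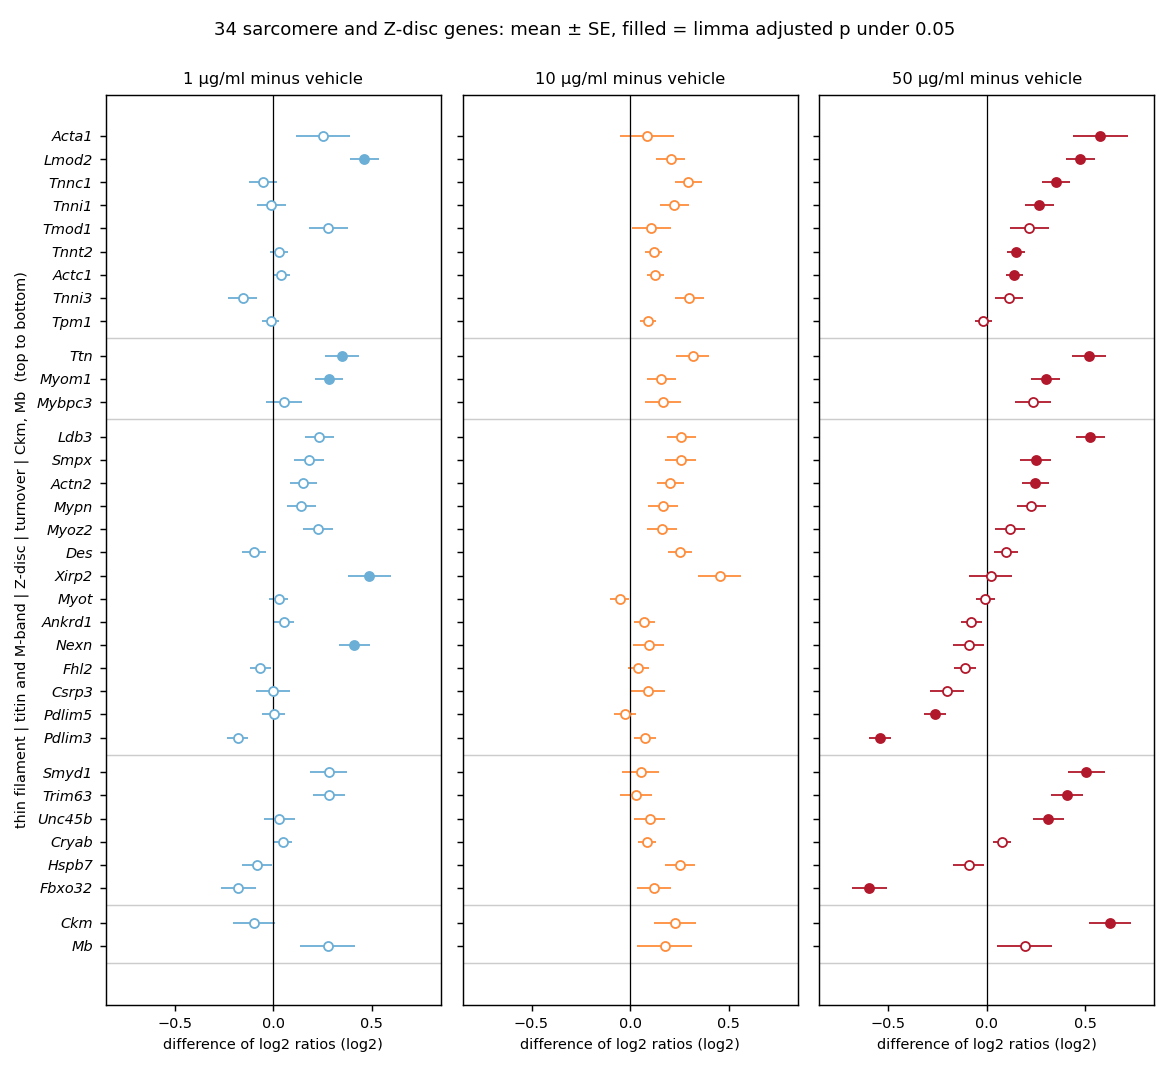
Each point is the difference of mean log2 ratios between a dose and the vehicle (x axis) for a member (y axis, ordered within roles by the difference at 50 µg/ml), with bars of 1 standard error and filled points past an adjusted p of 0.05. At 10 µg/ml all points are open, although 32 of 34 lie right of 0.

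Of the thin filament genes 6 of 9 rose at 50 µg/ml, 0 fell and 3 did not pass, where 8.75% of all genes were higher. The median difference was 0.21. Without vehicle replicate 3 Actc1, Acta1, Tnnt2 and Tnni1 lost their calls, and Tnnc1 and Lmod2 kept theirs. Acta1, the skeletal alpha-actin that the fetal heart also makes, had log2 ratios of 0.40, 0.21 and 0.44 at 50 µg/ml, against -0.30, -0.019 and -0.36 in the vehicle. The groups did not overlap, although vehicle replicate 2 stood above the other vehicle arrays, and the difference was 0.58 ± 0.14 (adjusted p = 0.0115). Without vehicle replicate 3 it missed the threshold (adjusted p = 0.0527). Cardiac alpha-actin, Actc1, moved far less: its ratios were 0.056, 0.054 and 0.033 at 50 µg/ml and -0.047, -0.11 and -0.12 in the vehicle, a rise of 0.14 ± 0.044 (adjusted p = 0.0453) that was lost in 10 of 12 omissions of an array. Within arrays the Acta1 ratio minus the Actc1 ratio was 0.34, 0.15 and 0.41 at 50 µg/ml and -0.26, 0.09 and -0.24 in the vehicle, which puts it above 0 on 3 arrays of 50 µg/ml and on 1 of the vehicle. This contrast was chosen after the values were seen and is a description.

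Lmod2, leiomodin 2, which nucleates and lengthens actin filaments, was the member whose calls were kept under every alternative run at both 1 and 50 µg/ml. Its ratios were -0.28, -0.28 and -0.39 in the vehicle, 0.31, 0.0056 and 0.12 at 1 µg/ml, -0.0056, -0.15 and -0.18 at 10 µg/ml and 0.18, 0.11 and 0.18 at 50 µg/ml. All 9 DEHP arrays lay above the 3 vehicle arrays, and the 10 µg/ml arrays lay lowest among the DEHP arrays. The rise was 0.47 ± 0.073 at 50 µg/ml (adjusted p = 0.000637) and 0.46 ± 0.073 at 1 µg/ml (adjusted p = 0.00624), while 50 and 1 µg/ml differed by 0.012 ± 0.073 with a 95% interval of -0.15 to 0.17. At 10 µg/ml Lmod2 was lower than at 1 µg/ml by 0.26 ± 0.073 and lower than at 50 µg/ml, the 50 minus 10 µg/ml difference being 0.27 ± 0.073. Tmod1, tropomodulin 1, which caps the same pointed end of the filament, stood at 0.21 ± 0.10 at 50 µg/ml (interval -0.00085 to 0.43) and did not pass.

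The troponins were not moved evenly. Tnnc1, troponin C, the calcium sensor of the thin filament, had ratios of 0.20, 0.20 and 0.26 at 50 µg/ml against -0.045, -0.18 and -0.17 in the vehicle, with no overlap and a rise of 0.35 ± 0.070 (adjusted p = 0.00393). Tnni1, the slow skeletal troponin I of the fetal heart, had ratios of 0.24, 0.13 and 0.083 at 50 µg/ml against 0.016, -0.22 and -0.13 in the vehicle and rose by 0.27 ± 0.074. Tnnt2, cardiac troponin T, which ties the complex to tropomyosin, had ratios of 0.054, 0.093 and 0.11 against -0.012, -0.10 and -0.083 and rose by 0.15 ± 0.045. Both calls were lost without vehicle replicate 3 and in other omissions: of 12, Tnni1 kept its call in 8 and Tnnt2 in 6. Tnnt2 also lost its call in a fit of only the groups compared and with the replicate number as a block. Tnni3, the troponin I of the adult heart, followed another course: its ratios were 0.046, -0.26 and -0.068 in the vehicle, -0.28, -0.23 and -0.24 at 1 µg/ml, 0.13, 0.32 and 0.17 at 10 µg/ml and 0.050, 0.0051 and -0.0051 at 50 µg/ml. Its mean was highest at 10 µg/ml and lowest at 1 µg/ml, and against the vehicle it passed at no dose, with differences of -0.16 ± 0.072, 0.30 ± 0.072 and 0.11 ± 0.072 at 1, 10 and 50 µg/ml. Between doses it was higher at 10 than at 1 µg/ml by 0.46 ± 0.072 (adjusted p = 0.00313) and higher at 50 than at 1 µg/ml by 0.27 ± 0.072. The Tnni1 ratio minus the Tnni3 ratio was 0.19, 0.13 and 0.088 at 50 µg/ml against -0.030, 0.040 and -0.067 in the vehicle. Tpm1, alpha-tropomyosin, which lies along the actin filament and blocks myosin at rest, had the smallest difference of the 9: -0.018 ± 0.042 at 50 µg/ml, with an interval of -0.11 to 0.073.

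Titin and the M-band protein myomesin 1 were higher at 50 and at 1 µg/ml. Ttn, the elastic filament that spans the sarcomere from Z-disc to M-band, had ratios of -0.19, -0.39 and -0.51 in the vehicle, 0.016, 0.051 and -0.11 at 1 µg/ml, 0.024, -0.14 and -0.016 at 10 µg/ml and 0.13, 0.049 and 0.28 at 50 µg/ml. All 9 DEHP arrays again lay above the 3 vehicle arrays. The rise was 0.52 ± 0.085 at 50 µg/ml (adjusted p = 0.00101) and 0.35 ± 0.085 at 1 µg/ml (adjusted p = 0.041), and the difference of 0.32 ± 0.085 at 10 µg/ml did not pass (adjusted p = 0.522). A repeated quantile normalization gave 0.57 at 1 µg/ml and 0.55 at 10 µg/ml. With every probe set tested by itself the call at 1 µg/ml was lost (limma adjusted p = 0.0518), although Ttn has 1 probe set and kept its values. With array weights Ttn passed at 10 µg/ml (limma adjusted p = 0.0335), where replicate 1 of that dose had the largest weight. The 3 doses could not be ordered for Ttn, since 50 minus 1, 50 minus 10 and 10 minus 1 µg/ml stood at 0.17 ± 0.085, 0.20 ± 0.085 and -0.031 ± 0.085 and none passed. Myom1 rose by 0.30 ± 0.073 at 50 µg/ml, where its arrays stood at 0.13, 0.018 and 0.077 against -0.076, -0.21 and -0.39 in the vehicle, and by 0.28 ± 0.073 at 1 µg/ml. Mybpc3, myosin-binding protein C of the thick filament, stood at 0.23 ± 0.092 at 50 µg/ml and did not pass (adjusted p = 0.102). For these 3 genes vehicle replicate 3 was the lowest of the vehicle arrays, at -0.51 for Ttn, -0.39 for Myom1 and -0.35 for Mybpc3. Without it Myom1 missed the threshold at both doses (adjusted p = 0.0508 at 50 µg/ml), while Ttn kept its call at 50 µg/ml and lost that at 1 µg/ml.

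The Z-disc held rises and falls side by side at 50 µg/ml: 3 of 14 members rose, 2 fell and 9 did not pass. The median difference was 0.0056 over the 14. Of all genes 8.75% were higher and 8.84% lower in this comparison. Ldb3 (ZASP or cypher), a PDZ and LIM protein that binds alpha-actinin, had ratios of 0.30, 0.19 and 0.40 at 50 µg/ml against -0.20, -0.23 and -0.25 in the vehicle, a rise of 0.53 ± 0.074 (adjusted p = 0.000317). It was also higher at 50 than at 10 µg/ml, by 0.27 ± 0.074, and than at 1 µg/ml, by 0.29 ± 0.074. Other genes of the PDZ and LIM family went both ways: Pdlim3 and Pdlim5 fell, and outside the list Pdlim7 rose by 0.23 ± 0.071 and Pdlim1 fell by 0.22 ± 0.044, both named here after their values were seen. Pdlim3 (ALP), which also binds alpha-actinin, had ratios of -0.44, -0.52 and -0.42 at 50 µg/ml against 0.14, 0.0098 and 0.10 in the vehicle and fell by 0.54 ± 0.055 (adjusted p = 2.44e-05). Pdlim5 (ENH), which tethers protein kinase C isoforms at the Z-disc, had ratios of -0.25, -0.25 and -0.24 at 50 µg/ml against 0.056, 0.066 and -0.065 in the vehicle and fell by 0.26 ± 0.056. All 3 arrays of 50 µg/ml lay below all 9 other arrays in both genes. Pdlim3 also fell at 50 against 10 µg/ml, by 0.62 ± 0.055, and at 50 against 1 µg/ml, by 0.36 ± 0.055. Pdlim3 is made in smooth muscle too, and on the same arrays 5 of 8 markers of smooth muscle and pericytes fell and 2 rose, their median being -0.27. The array medians of that list were -0.33, -0.20 and -0.24 at 50 µg/ml against -0.031, 0.025 and 0.0085 in the vehicle, and its part in the fall was not tested.

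Among other structural proteins of the Z-disc Actn2 and Smpx rose at 50 µg/ml, while Mypn, Myoz2, Myot and Des did not pass. Actn2, sarcomeric alpha-actinin, which cross-links actin filaments from neighbouring sarcomeres, had ratios of 0.065, -0.0064 and 0.12 at 50 µg/ml against -0.063, -0.14 and -0.35 in the vehicle. Its rise was 0.25 ± 0.067 (limma adjusted p = 0.0242). Without vehicle replicate 3, at -0.35, it was 0.162 and did not pass. The call was also lost without replicate 1 or replicate 3 of 50 µg/ml, and in a fit of only the groups compared. Smpx, a small protein of striated muscle, had ratios of 0.10, 0.0023 and 0.12 at 50 µg/ml against -0.035, -0.25 and -0.24 in the vehicle, rose by 0.25 ± 0.078 and lost its call in 9 of 12 omissions. Myopalladin Mypn, calsarcin Myoz2 and myotilin Myot, which bind alpha-actinin or filamin at the Z-disc, stood at 0.23 ± 0.076, 0.12 ± 0.076 and -0.0080 ± 0.048 and did not pass. Mypn lay near the threshold (limma adjusted p = 0.0583), and its arrays did not overlap those of the vehicle. It passed with a repeated quantile normalization, array weights, the compared groups alone, the replicate block and some omissions of an array. Des, the desmin that links Z-discs into register, stood at 0.10 ± 0.060 at 50 µg/ml and did not pass against the vehicle at any dose. Like Tnni3 it had its highest mean at 10 µg/ml, with ratios of 0.0029, -0.063 and -0.16 in the vehicle, -0.12, -0.25 and -0.14 at 1 µg/ml, 0.071, 0.21 and 0.26 at 10 µg/ml and 0.046, -0.0029 and 0.031 at 50 µg/ml, and the 10 against 1 µg/ml difference was 0.35 ± 0.060 (adjusted p = 0.00454).

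The load-responsive Z-disc genes Ankrd1, Csrp3 and Fhl2 did not pass against the vehicle at 50 µg/ml. In Ankrd1 and Csrp3 the 3 arrays of 50 µg/ml lay below the 3 vehicle arrays, where 36% of all genes did not overlap. With the replicate number as a block Csrp3 passed as lower. Ankrd1, the ankyrin repeat protein CARP, which shuttles between titin and the nucleus, had ratios of -0.079, -0.11 and -0.077 at 50 µg/ml against 0.086, -0.047 and -0.058 in the vehicle, a difference of -0.081 ± 0.054 with an interval of -0.20 to 0.036. Csrp3, the muscle LIM protein, stood at -0.088, -0.25 and -0.13 against 0.28, -0.079 and -0.057, a difference of -0.20 ± 0.087 (adjusted p = 0.134), and vehicle replicate 1 lay apart from the other vehicle arrays. Against 10 µg/ml the 50 µg/ml ratio of Csrp3 was lower by 0.30 ± 0.087 (adjusted p = 0.0365). Fhl2, a LIM-only scaffold at the titin I-band and Z-disc, stood at -0.11 ± 0.054 and did not pass.

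**Figure D3:**
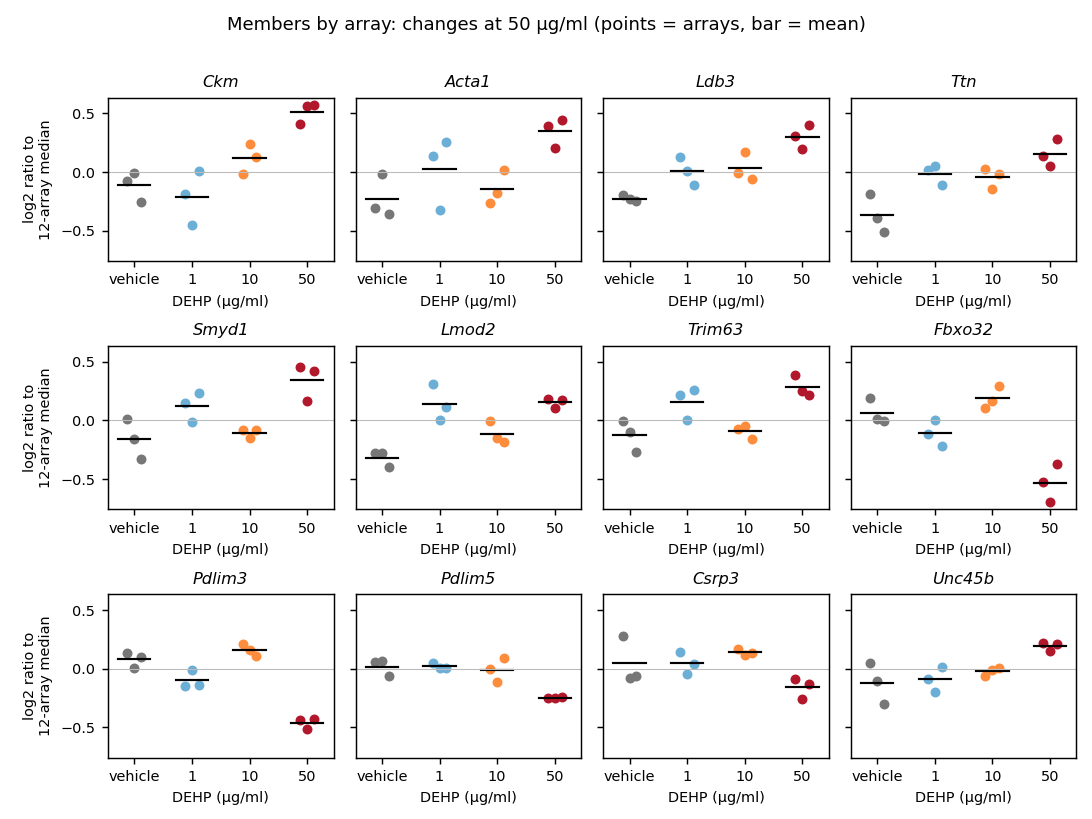
Points are single arrays and bars group means of the log2 ratio to the 12-array median (y axis) for 12 members at vehicle, 1, 10 and 50 µg/ml DEHP (x axis). Fbxo32, Pdlim3 and Pdlim5 sit below all other arrays at 50 µg/ml, whereas Ckm sits above them.

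Among turnover and assembly genes the ubiquitin ligases of muscle wasting moved in opposite directions at 50 µg/ml. Trim63 (MuRF1), which ubiquitinates thick filament proteins and troponin I, had ratios of 0.38, 0.25 and 0.22 at 50 µg/ml against -0.0080, -0.10 and -0.27 in the vehicle and rose by 0.41 ± 0.080 (adjusted p = 0.00326). Fbxo32 (atrogin-1), the F-box subunit of another ligase that the same transcription factors are known to switch on in wasting muscle, had ratios of -0.52, -0.69 and -0.37 at 50 µg/ml against 0.19, 0.015 and -0.0034 in the vehicle and fell by 0.60 ± 0.088 (adjusted p = 0.00043). Neither gene's groups overlapped, and both calls were kept in all 12 omissions of an array and under the 8 other alternatives. Within arrays the Trim63 ratio minus the Fbxo32 ratio was 0.91, 0.94 and 0.59 at 50 µg/ml against -0.20, -0.11 and -0.26 in the vehicle, a contrast chosen after the values were seen. At 10 µg/ml this difference was -0.18, -0.21 and -0.46, and Trim63 was higher at 50 than at 10 µg/ml by 0.38 ± 0.080 while Fbxo32 was lower by 0.72 ± 0.088. Fbxo32 also separated the lower doses, being higher at 10 than at 1 µg/ml by 0.30 ± 0.088.

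Assembly factors rose as well. Smyd1, a methyltransferase of heart and skeletal muscle needed for sarcomere assembly, had ratios of 0.45, 0.16 and 0.42 at 50 µg/ml against 0.014, -0.16 and -0.32 in the vehicle and rose by 0.50 ± 0.095 (adjusted p = 0.00251). Unc45b, the myosin chaperone that works with Smyd1, had ratios of 0.22, 0.15 and 0.21 against 0.046, -0.11 and -0.30 and rose by 0.31 ± 0.078, but not without vehicle replicate 3 (adjusted p = 0.0596). The small heat shock proteins did not pass. Cryab, alpha-B-crystallin, stood at 0.075 ± 0.045 and Hspb7 at -0.093 ± 0.077, with adjusted p values of 0.314 and 0.483. The ratios of Hspb7 were 0.20, -0.094 and 0.029 in the vehicle, -0.028, 0.024 and -0.11 at 1 µg/ml, 0.33, 0.40 and 0.16 at 10 µg/ml and -0.034, -0.024 and -0.091 at 50 µg/ml. Its mean was highest at 10 µg/ml, where the arrays overlapped those of the vehicle. It was lower at 50 than at 10 µg/ml by 0.35 ± 0.077 and higher at 10 than at 1 µg/ml by 0.33 ± 0.077.

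Ckm, the creatine kinase bound at the M-band that regenerates ATP there, showed the largest rise of all members. Its ratios were -0.073, -0.0079 and -0.25 in the vehicle, -0.19, -0.45 and 0.0079 at 1 µg/ml, -0.018, 0.24 and 0.13 at 10 µg/ml and 0.41, 0.56 and 0.57 at 50 µg/ml, and the 3 arrays of 50 µg/ml lay above all others. The rise was 0.63 ± 0.11 against the vehicle (adjusted p = 0.00122), 0.40 ± 0.11 against 10 µg/ml and 0.72 ± 0.11 against 1 µg/ml. Mb, the oxygen store myoglobin, stood at 0.19 ± 0.14 at 50 µg/ml with overlapping arrays and did not pass.

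At 1 µg/ml 5 members rose, namely Xirp2, Lmod2, Nexn, Ttn and Myom1, and 0 fell, and in 9 members the arrays did not overlap with the vehicle, as in 30.8% of all genes. Xirp2, an actin-binding repeat protein of the Z-disc and intercalated disc, had ratios of -0.051, -0.38 and -0.40 in the vehicle, 0.34, 0.18 and 0.11 at 1 µg/ml, 0.34, 0.051 and 0.15 at 10 µg/ml and -0.11, -0.42 and -0.25 at 50 µg/ml. It rose by 0.49 ± 0.11 at 1 µg/ml (adjusted p = 0.0289) and stood at 0.019 ± 0.11 at 50 µg/ml, where it was lower than at 1 µg/ml by 0.47 ± 0.11 and lower than at 10 µg/ml by 0.44 ± 0.11. Nexn, nexilin, an actin-binding protein of the Z-disc, had ratios of 0.023, -0.10 and -0.023 in the vehicle, 0.46, 0.30 and 0.37 at 1 µg/ml, 0.11, -0.13 and 0.21 at 10 µg/ml and -0.070, -0.19 and -0.11 at 50 µg/ml. Its 3 arrays of 1 µg/ml lay above all 9 others. The rise was 0.41 ± 0.078 at 1 µg/ml (adjusted p = 0.0149), and Nexn was lower at 50 than at 1 µg/ml by 0.50 ± 0.078 and lower at 10 than at 1 µg/ml by 0.32 ± 0.078. The 5 calls shrank to 1, that of Lmod2, without vehicle replicate 2 or 3 or without replicate 1 or 3 of 1 µg/ml, and to 3, with Ttn and Myom1 lost, without replicate 1 of 10 µg/ml or replicate 1 of 50 µg/ml. Without replicate 2 of 1 µg/ml Ttn, Myom1 and Xirp2 lost their calls and Trim63 gained one. The 1 and 50 µg/ml differences share the vehicle arrays.

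**Figure D4:**
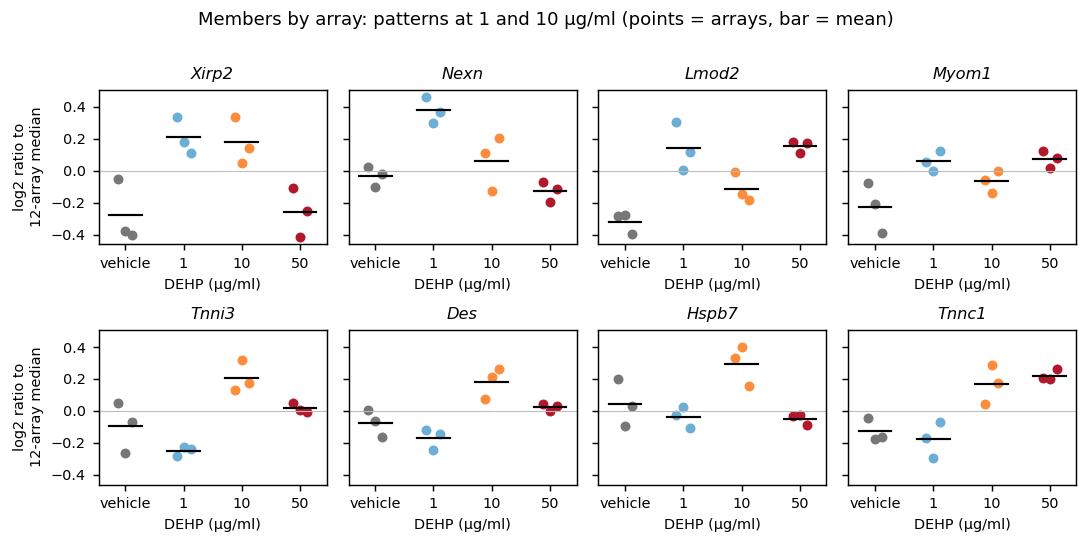
Points are single arrays and bars group means of the log2 ratio to the 12-array median (y axis) for 8 members at vehicle, 1, 10 and 50 µg/ml DEHP (x axis). Xirp2 and Nexn are high at 1 µg/ml and overlap the vehicle at 50 µg/ml, while Tnni3, Des and Hspb7 have their highest means at 10 µg/ml.

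At 10 µg/ml 0 members passed against the vehicle by limma, where 0% of all genes passed. An unadjusted limma p under 0.05 was found for 15 of 34 members and for 899 of all 14324 genes. With array weights Ttn and Xirp2 passed, but the weights were 3.77, 0.271 and 0.707 for replicates 1, 2 and 3 of 10 µg/ml. How far these 2 calls rest on replicate 1 was not tested. Yet 32 of 34 members stood above 0, against 6662 of all 14324 genes, with a median of 0.14. In 12 members the 3 arrays lay above the 3 vehicle arrays, against 717 of all 14324 genes. Counting gaps in both directions, 11.2% of all genes did not overlap. Genes of the same cultures do not vary independently, so these counts describe the arrays and are no test. By array, the member medians of the difference from the vehicle mean were 0.13, 0.11 and 0.18 at 10 µg/ml. In the vehicle they were 0.10, -0.017 and -0.074, so the highest vehicle array came close to the lowest array of 10 µg/ml. The largest difference was that of Xirp2, 0.46 ± 0.11 (adjusted p = 0.424), with Ttn, Tnni3 and Tnnc1 at 0.30 to 0.32.

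Between doses members went both ways. At 50 against 10 µg/ml 6 rose and 6 fell, where 7.75% of all genes were higher and 6.85% lower, and 20 members did not overlap between these doses, as 26.2% of all genes did not. The rises were Acta1, Smyd1, Ckm, Trim63, Lmod2 and Ldb3, and the falls were Fbxo32, Pdlim3, Xirp2, Hspb7, Csrp3 and Pdlim5. The count was 7 without replicate 3 of 50 µg/ml, and 5 after a repeated quantile normalization. At 50 against 1 µg/ml 7 rose and 5 fell, a total of 12 where 24.9% of all genes changed (11.5% higher and 13.4% lower), the rises being Ckm, Tnnc1, Ldb3, Unc45b, Tnni3, Tnni1 and Des and the falls Nexn, Xirp2, Fbxo32, Pdlim3 and Pdlim5. That count was 7 after a repeated quantile normalization. At 10 against 1 µg/ml 6 rose (Tnni3, Tnnc1, Des, Hspb7, Fbxo32 and Pdlim3) and 2 fell (Nexn and Lmod2), where 4.77% of all genes were higher and 9.2% lower. In 16 members the 10 and 1 µg/ml arrays did not overlap, as in 30.4% of all genes, and the count of calls was 5, 5 and 4 without replicates 1 and 3 of 1 µg/ml and replicate 2 of 10 µg/ml. Over the 4 groups together the F test called 19 of the 34, where 27.2% of all genes were called: 5 of 9 in the thin filament, 2 of 3 around titin, 6 of 14 at the Z-disc, 5 of 6 in turnover and assembly, and Ckm.

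Sarcomere genes outside the list were counted in the same way. Of 45 other sarcomere and Z-disc genes measured, 6 rose and 6 fell at 50 µg/ml, with a median of 0.0070. At that dose 17.6% of all genes changed, 8.75% higher and 8.84% lower. The co-chaperone Bag3, which clears damaged filamin, rose by 0.48 ± 0.05, the kelch protein Klhl31 by 0.61 ± 0.10, and the non-muscle alpha-actinin Actn4 fell by 0.26. At 1 µg/ml Pdlim1 rose by 0.18 ± 0.04 and dystrophin, Dmd, stood at 0.37 ± 0.10 without passing. Of 12 myosin genes measured 3 rose and 2 fell at 50 µg/ml, with a median of 0.070. Of 10 transcription factors that act on sarcomere genes 3 rose and 0 fell at 50 µg/ml, Srf by 0.34 ± 0.05, Gata6 by 0.28 ± 0.08 and Tbx5 by 0.24 ± 0.08, and at 1 µg/ml 0 of 10 passed.

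Markers of other cells moved on the same arrays. Over all genes tested 8.75% were higher and 8.84% lower at 50 µg/ml, and 2.51% and 1.74% at 1 µg/ml. At 50 µg/ml 19 of 20 macrophage and leukocyte markers fell, with array medians of -1.25, -1.08 and -1.28 from the vehicle mean against -0.050, 0.063 and -0.018 in the vehicle, and 9 of 10 cell cycle genes fell (median -0.37). At 50 µg/ml 5 of 9 endothelial markers rose and 1 fell (median 0.25), 3 of 6 epicardial markers rose (median 0.32) and 1 of 13 fibroblast markers rose and 3 fell (median 0.0060). Myogenic factors of skeletal muscle gave 0 calls of 5. At 1 µg/ml 3 of 20 macrophage markers and 3 of 9 endothelial markers fell, with medians of -0.24 and -0.34. Their part in the member changes was not tested. Over the members the array medians were 0.21, 0.12 and 0.18 at 50 µg/ml against 0.10, -0.017 and -0.074 in the vehicle, so that the highest vehicle array came close to the lowest array of 50 µg/ml.

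**Figure D5:**
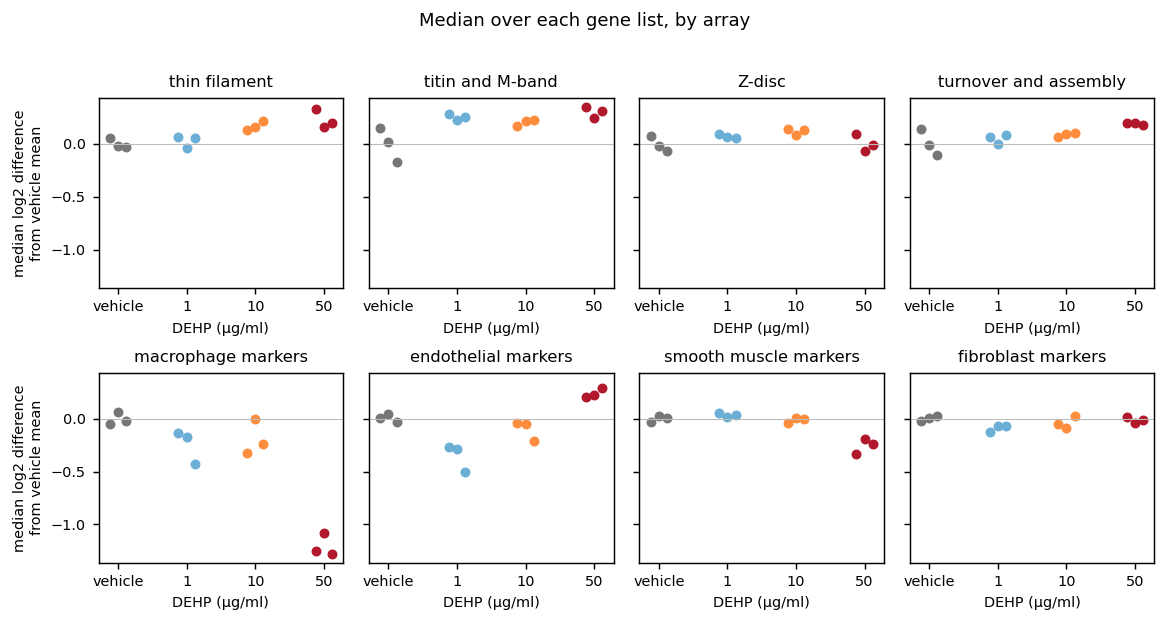
Points are the median over a gene list of the log2 difference from the vehicle mean (y axis) on each array at vehicle, 1, 10 and 50 µg/ml DEHP (x axis), for 4 roles of the members (top) and 4 marker lists of other cells (bottom). Medians of macrophage markers lie between -1.28 and -1.08 at 50 µg/ml. Those of the titin and M-band genes lie above 0 on all DEHP arrays and also on vehicle replicates 1 and 2 (0.15 and 0.017).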

How the data were processed

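Total RNA of each culture was hybridised to 1 Affymetrix array, and 12 arrays fall into 4 groups of 3 by the labels. The deposited values are linear ratios: the authors prepared them with RMA, per the submitters' processing notes (version not given), and in each probe set the 2 middle log2 values average to 0 within 1e-06, so the values are ratios between an array and the 12-array median, in a direction that this test cannot show. The ratios ran from 0.165 to 12.2, and array medians from 0.994 to 1.01. Background, scale and batch information other than this are not given in the sources used here, and the number of arrays limits the precision.

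Log2 of the ratio was taken, in place of the log2 values first assumed. Of 27342 probe sets, 15097 have 1 gene symbol in the platform annotation, 323 several and 11922 none, and only the first were used. A gene is the mean of its probe sets (499 genes have more than 1). limma 3.58.1 in R 4.3.3 fitted group means to all 12 arrays with 8 residual degrees of freedom, and p-values were adjusted by Benjamini-Hochberg over 14324 genes at a threshold of 0.05, two-sided. The procedure was tested on simulated data. An exact permutation test of 3 against 3 arrays cannot go below 0.1, so none is printed.

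The members and marker lists were chosen with earlier results of these data known. Values per array are given for members past the threshold at 50 or 1 µg/ml and for a panel of well-known members. Of each other list at most the 3 genes with the smallest p at 50 µg/ml and the 2 at 1 µg/ml are named. Outside this rule stand the array values of Hspb7 and the naming of Pdlim1 and Pdlim7 at 50 µg/ml. Alternatives tried were a repeated quantile normalization, centring, a prior following the mean, a robust prior, array weights, a fit of only the groups compared, a block for the replicate number, single probe sets and each array left out. With single probe sets all 27342 probe sets were fitted and adjusted together. A member's own values stay the same there, since each of the 34 has 1 probe set. No 2 arrays held identical values.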

Additional observations from a re-analysis of the deposited data

How the results depend on the processing

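No call of a member against the vehicle changed sign in any alternative, and the signs of calls between doses were not followed. At 50 µg/ml against the vehicle 10 of 18 calls were kept in every alternative (Tnnc1, Lmod2, Ttn, Ldb3, Pdlim5, Pdlim3, Trim63, Fbxo32, Smyd1 and Ckm), and at 1 µg/ml 1 of 5 (Lmod2). Leaving out single arrays gave 10 to 19 calls at 50 µg/ml, 0 to 0 at 10 µg/ml and 1 to 7 at 1 µg/ml against the vehicle, and 7 to 13 at 50 against 10, 9 to 13 at 50 against 1, 4 to 9 at 10 against 1 µg/ml and 16 to 21 in the F test. The low of 10 came without vehicle replicate 3, which lost Actc1, Acta1, Tnnt2, Tnni1, Myom1, Actn2, Smpx and Unc45b. A repeated quantile normalization gave 5 calls at 50 against 10 µg/ml and 7 at 50 against 1 µg/ml, and moved Ttn at 1 µg/ml to 0.57. Array weights, largest for replicate 1 of 10 µg/ml (3.77), gave 2 calls at 10 µg/ml (Ttn and Xirp2) and 9 at 1 µg/ml. The compared groups alone gave 4 at 10 against 1 µg/ml, and single probe sets 3 at 1 µg/ml. The cause was not tested. With the replicate number as a block 18 members were called at 50 µg/ml, 16 of them shared, and 0, 5, 12, 13 and 8 at 10 and 1 µg/ml and in 50 against 10, 50 against 1 and 10 against 1 µg/ml. With group means taken off, same-numbered arrays of different groups correlated at -0.233 to 0.431, with 6 of 18 over 0.1. Differently numbered arrays correlated at -0.481 to 0.494, so the numbers were not taken to pair samples. The -0.481 was between replicate 2 of 10 µg/ml and replicate 1 of 50 µg/ml. The 0.494 was between replicate 3 of 10 µg/ml and replicate 1 of 50 µg/ml. What these arrays share was not tested. Filtering by brightness could not be tried, since the ratios carry no level, and how far each probe set lay above background is unknown.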
